A study of Homo sapiens with 19 samples.

Results

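Chromatin immunoprecipitation peaks for acetylation of histone H3 at lysine 27 (H3K27ac) were compared across 4 human leukaemia cell lines around 8 genes for transcription factors of the myeloid lineage. The members were SPI1, CEBPA, CEBPB, CEBPD, CEBPE, IRF8, GFI1 and KLF4, chosen by name as known regulators of the lineage and located with GENCODE 44 on hg38. They were 8 of the 20033 protein-coding genes on chromosomes 1 to 22, X and Y. The members and the gene lists below were chosen with earlier results of these data known. The series holds 19 samples in 16 groups, of which the 4 H3K27ac peak lists described here came from 1 library per line. HL-60 and Molm13, both from acute myeloid leukaemia (AML), were untreated. OCI-AML3, also from AML, and K562, from chronic myeloid leukaemia in blast crisis, carried lentiviral dCas9-KRAB-mCherry (inactive Cas9 fused to a repressor domain) and a BFP vector without an sgRNA, and were sorted for mCherry and BFP. The cell line and the vector therefore cannot be told apart, and with no replicate library no difference between lines could be set against replicate error, so values are given without a test or SD. A line that holds a peak differs from one that does not only in the call of that single library.

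In blood formation, SPI1 encodes PU.1, the ETS factor that opens myeloid enhancers, and the C/EBP factors are leucine zipper proteins that act with it at granulocyte and monocyte genes. CEBPA acts early in granulocyte-monocyte progenitors, CEBPE late in granulocytes, and CEBPB and CEBPD in emergency and inflammatory responses. IRF8 and KLF4 favour monocytes, while GFI1, a zinc finger repressor that recruits histone demethylases and deacetylases, favours neutrophils. H3K27ac marks active promoters and enhancers, and very wide H3K27ac domains often lie at genes that define a cell's identity.

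A TSS peak was a peak that reached to within 500 bp of any annotated transcription start site (TSS) of the gene; the widest was taken where several did. All 8 members had a TSS peak in Molm13 and in OCI-AML3, 5 had one in HL-60 and 2 had one in K562. Among all protein-coding genes the share with a TSS peak was 53.9% in Molm13, 57.7% in OCI-AML3, 44.7% in HL-60 and 55.9% in K562. The members' share thus lay above that of coding genes in the 3 AML lines and below it in K562, where 25% of the members had a peak. With a peak required over at least 0.5 of the window, HL-60 had 3 members, or 37.5%, against 36.7% of coding genes. The counts of K562 (2), Molm13 (8) and OCI-AML3 (8) stayed, against 51.2%, 48.7% and 53.4% of coding genes. The HL-60 list is the shortest, with 20814 peaks, whereas K562 has 37484, Molm13 35206 and OCI-AML3 37606, and the sequencing depth behind the lists is unknown. Restricting every list to as many of its strongest peaks as HL-60 has left 2 members with a TSS peak in K562, 8 in Molm13 and 7 in OCI-AML3, where KLF4 was lost. The share of coding genes was not computed for these shortened lists, so these counts cannot be set against the shares above.

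The members fell into 3 patterns. SPI1 and CEBPB had a TSS peak in all 4 lines, as did 40.5% of coding genes. CEBPA, CEBPE and GFI1 had one in the 3 AML lines and none in K562, a pattern found in 2.22% of coding genes. CEBPD, IRF8 and KLF4 had one in Molm13 and OCI-AML3 only, a pattern found in 2.78% of coding genes. No member had a TSS peak in K562 without having one in the AML lines.

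**Figure D1:**
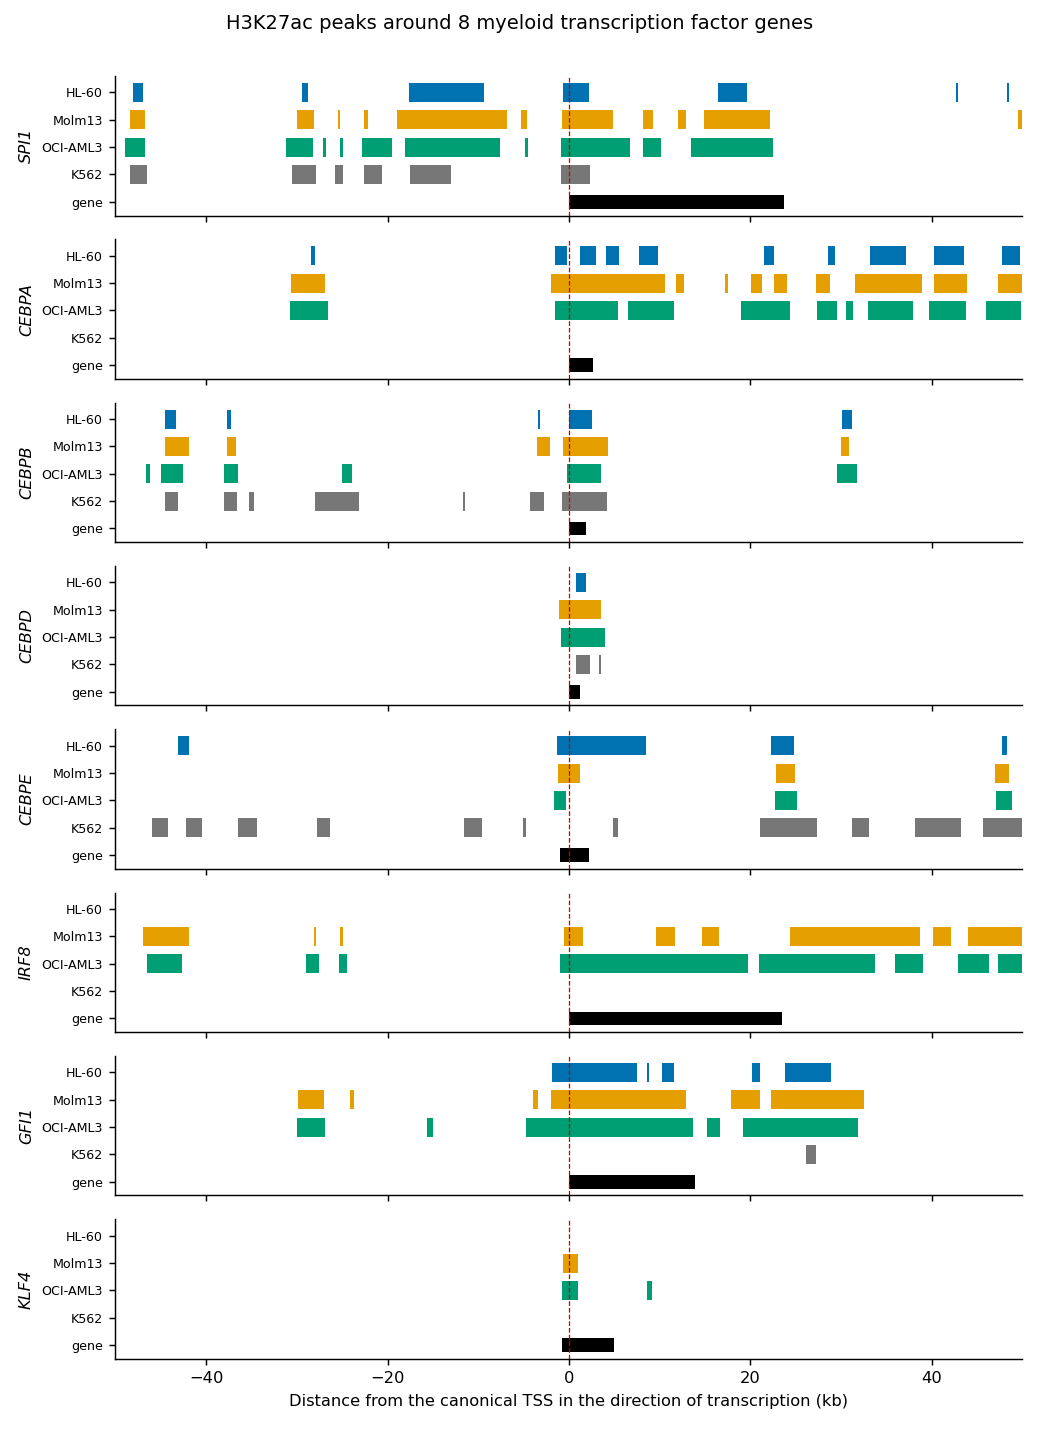
H3K27ac peaks (coloured bars, 1 row per cell line) from 50 kb upstream to 50 kb downstream of the canonical TSS of each gene, with distance in kb in the direction of transcription, the TSS as a dashed line and the gene as a black bar. K562 has no peak in the whole range around CEBPA, IRF8 and KLF4, and HL-60 has none around IRF8 and KLF4.

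The cell lines were checked against markers of blood lineages. All 8 erythroid marker genes had a TSS peak in K562, among them GATA1, KLF1, HBG1, HBG2, HBZ and ALAS2, against 1 (EPOR) in each AML line. Of 8 myeloid marker genes, OCI-AML3 had a TSS peak at 8, Molm13 at 7, and HL-60 and K562 at 6 each. MPO, the granule enzyme myeloperoxidase, was the only myeloid marker with a peak in the 3 AML lines and none in K562. Neighbouring markers can share a peak, so these are counts of genes and not of separate peaks. HBG1 and HBG2 shared a 21706 bp peak in K562, and AZU1 and PRTN3 a 34162 bp peak in Molm13. No T cell marker of 4 had a TSS peak in any line, and of 4 B cell markers 3 had one in HL-60 and 2 in each of the other lines.

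Fold enrichment is the ratio of ChIP signal to the local background that the peak caller estimated, averaged over the peak. It was read only within a list, as its scale differs between them, with a median at TSS peaks of coding genes of 6.18 for Molm13, 5.06 for HL-60, 3.93 for OCI-AML3 and 3.62 for K562. The median width of those peaks grew from 1343 bp in HL-60 through 1923 bp (Molm13) and 2140 bp (OCI-AML3) to 2850 bp in K562. Members with a TSS peak had a median width of 2826 bp, 4835 bp, 5844 bp and 4057 bp in the same order of lines. Percentiles below rank a peak among the TSS peaks of coding genes in its own list, where a gene with several TSSs is represented by its widest peak.

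SPI1 (ENSG00000066336, chr11:47354860-47378547, minus strand) had a TSS peak in every line. OCI-AML3 had the widest at 7640 bp, percentile 95.7 of its list, and Molm13 followed with 5627 bp at percentile 93.2. The K562 peak of 3140 bp was wider than the HL-60 peak of 2826 bp, but stood at percentile 55.1 of its list against 88.6 for HL-60. The fold enrichment was 6.68 in OCI-AML3 (percentile 99.2), 10 in Molm13 (89.1), 5.96 in HL-60 (66.1) and 3.88 in K562 (64.6). The peak started within 1000 bp upstream of the TSS in every line and differed in how far it ran into the gene. Peaks covered 9.67% of the gene in K562, 22.5% in HL-60, 59.3% for Molm13 and 75% for OCI-AML3.

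With all peaks counted, SPI1 had the longest covered sequence within 50 kb upstream of all members in every line. Peaks covered 10.2 kb of the stretch between 500 bp and 50 kb upstream in HL-60, 17.5 kb in Molm13, 20.4 kb in OCI-AML3 and 12.3 kb in K562. Compared with the same stretch of all coding genes, these lengths stood at percentile 99.5, 99, 99.3 and 94. SPI1 has a well-known upstream regulatory element about 17 kb before its TSS, on which PU.1 itself acts. The point 17 kb upstream, looked up after the peaks were seen, lay inside a peak in all 4 lines. The far edge of that peak lay 17.7 kb upstream in HL-60 and 17.5 kb in K562, 19 kb in Molm13 and 18.1 kb in OCI-AML3. The extent of the element was not looked up, so cover of all of it is not shown. This peak was 8322 bp wide in HL-60 with a fold enrichment of 8.99, and 12215 bp wide in Molm13 with a fold enrichment of 14.3. In OCI-AML3 it was 10474 bp wide with a fold enrichment of 6.36, and in K562 it was 4537 bp wide with a fold enrichment of 4.19. Among all peaks of a list, its width stood at percentile 99.9, 99.6 and 99 in the 3 AML lines and 90.1 in K562. The joined region, chr11:47385339-47397553, lies over exons of the antisense transcript SLC39A13-AS1.

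Other upstream peaks lay at neighbouring genes. Regions at the TSSs of SLC39A13 (chr11:47406473-47409749) and PSMC3 (chr11:47425057-47427510) were marked in all 4 lines. Their distance from SPI1 does not assign them to it. The wide upstream peak also took in a TSS of SLC39A13-AS1. With only peaks more than 500 bp from every annotated TSS of any gene, SPI1 kept 869 bp of covered sequence upstream in K562, 961 bp for Molm13, 914 bp for OCI-AML3 and none for HL-60. The longest was then that of CEBPB in HL-60 (1484 bp) and Molm13 (4050 bp), CEBPA in OCI-AML3 (4214 bp) and CEBPE in K562 (3899 bp). Within 100 kb upstream, with all peaks, CEBPB led in K562 with 17380 bp against 12298 bp for SPI1. Inside the SPI1 gene, a peak at chr11:47356012-47365055 over exons toward its 3′ end was 3133 bp wide in HL-60, 7231 bp in Molm13 and 9044 bp in OCI-AML3. K562 had no further peak downstream of its SPI1 TSS peak within 50 kb.

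CEBPB (ENSG00000172216, chr20:50190830-50192668, plus strand) was the other member with a TSS peak in all 4 lines. Its widths of 5019 bp in Molm13 and 4974 bp in K562 were nearly equal, while OCI-AML3 had 3780 bp and HL-60 2533 bp. They stood at percentile 91, 77.7, 80.3 and 84.9 in that order, a narrower span of ranks than for SPI1. Its fold enrichment of 4.44 in K562 stood at percentile 88.8, whereas 4.13 in HL-60 stood at percentile 28.4. Peaks covered 98.4% of the short, intronless gene in HL-60 and 100% in the other lines. In HL-60 the peak began 30 bp after the TSS, so it would not count if 0.5 of the TSS window had to be covered.

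Upstream of CEBPB, K562 had the most covered sequence, 10.4 kb against 1.88 kb in HL-60, 5.23 kb in Molm13 and 5.42 kb in OCI-AML3. Away from every TSS, however, K562 had 3783 bp and Molm13 had more, 4050 bp, while OCI-AML3 had 2867 bp and HL-60 1484 bp. A region in an intron of PEDS1, chr20:50145834-50148914, was marked in all 4 lines. A region over the long non-coding RNA LINC01275, chr20:50162864-50167720, was marked by a 4857 bp peak in K562 and a 1020 bp peak in OCI-AML3. Downstream, an intergenic region at chr20:50220403-50222626 was marked in the 3 AML lines, by peaks of 1053 bp, 903 bp and 2224 bp in HL-60, Molm13 and OCI-AML3, and not in K562.

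CEBPA, CEBPE and GFI1 formed the group with TSS peaks in the 3 AML lines only. The 250 bases before their canonical TSSs are shown because each lay in or beside an AML peak and outside every K562 peak. RefSeq windows were matched by symbol for 6 members, 5 of them near the canonical TSS, on GRCh38.p14. The sequences are written 5′ to 3′ on the strand of the gene, with letters matched by a searched motif in capitals.
CEBPA: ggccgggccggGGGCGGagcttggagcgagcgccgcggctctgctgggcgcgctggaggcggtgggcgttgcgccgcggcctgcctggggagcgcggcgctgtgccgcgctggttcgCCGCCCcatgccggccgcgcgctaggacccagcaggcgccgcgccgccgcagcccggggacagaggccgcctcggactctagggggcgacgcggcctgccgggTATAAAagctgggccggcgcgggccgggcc
CEBPE: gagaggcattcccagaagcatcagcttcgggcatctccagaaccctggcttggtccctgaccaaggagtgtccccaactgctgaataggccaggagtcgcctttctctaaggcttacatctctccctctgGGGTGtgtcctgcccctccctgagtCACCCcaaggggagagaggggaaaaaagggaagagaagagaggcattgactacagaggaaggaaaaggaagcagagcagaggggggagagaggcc
GFI1: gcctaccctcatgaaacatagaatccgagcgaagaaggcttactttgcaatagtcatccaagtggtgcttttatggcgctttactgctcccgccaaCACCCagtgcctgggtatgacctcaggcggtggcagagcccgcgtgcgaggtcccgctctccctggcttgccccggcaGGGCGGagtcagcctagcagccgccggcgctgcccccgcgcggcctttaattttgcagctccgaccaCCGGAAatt
The windows are chr19:33302535-33302784 (minus strand), chr14:23119256-23119505 (minus strand) and chr1:92486926-92487175 (minus strand). The CEBPE window lies inside the annotated gene, as other annotated TSSs of CEBPE lie further upstream, the last at position 23120256. It is therefore not the sequence before the first start of that gene.

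The 3 windows differ in base composition. The CEBPA window held 81.2% G and C with a CpG ratio of 1.01 observed over expected, the CEBPE window 57.2% with a ratio of 0.0992, and the GFI1 window 61.2% with a ratio of 0.82. Across 35116 promoter windows of the same length the medians were 58% and 0.558. CEBPA thus had a CpG-rich window and CEBPE a CpG-poor one. The CEBPA window was covered by a peak over 100% of its length in Molm13 and OCI-AML3 and over 5.2% in HL-60. The CEBPE window was covered fully in HL-60 and Molm13 and not at all in OCI-AML3, and the GFI1 window was covered fully in all 3 AML lines.

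The letters of 8 motifs were searched on both strands. TATAAA occurred once in CEBPA, 30 bases before the TSS, and in 10.7% of all windows. CCGGAA, a form of the ETS site, occurred once in GFI1, close to its TSS, and in 14.5% of all windows. The shorter letters GGAA, present in the CEBPE window, were not searched. GGGCGG, a box bound by KLF and SP factors, had 2 matches in CEBPA, 1 in GFI1 and none in CEBPE, against 42.6% of all windows with a match. CACCC, also read by KLF factors, had 2 matches in CEBPE and 1 in GFI1, and occurred in 54.7% of windows. The PU.1 site GAGGAAGT, the C/EBP site TTNCNNAA, the IRF site (a pair of GAAA with 2 bases between) and CCAAT had no match in these 3 windows and occurred in 2.17%, 33.2%, 3.02% and 32% of all windows. No printed matches overlapped each other. The table also held a window for CEBPB with 75.6% G and C and 4 GGGCGG matches, and for KLF4 with 69.2% and 4 GGGCGG matches, neither with any other match.

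CEBPA (ENSG00000245848, chr19:33299934-33302534, minus strand) had a TSS peak of 1263 bp in HL-60, 12470 bp in Molm13 and 6933 bp in OCI-AML3. The Molm13 peak stood at percentile 99 for width, the OCI-AML3 peak at 94.6 and the HL-60 peak at 46.1. The HL-60 peak ended before the TSS, at position -238, and was followed by 3 separate peaks of 1765 bp, 1419 bp and 2050 bp in the first 10 kb downstream, where Molm13 had a single peak. Peaks covered 53.3% of the intronless gene in HL-60 and 100% in Molm13 and OCI-AML3. The peak at the TSS also lay at the start of the divergent transcript CEBPA-DT, and peaks carry no strand. K562 had no peak over the gene, and none from 70.0 kb upstream to 124 kb downstream of its TSS.

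Most H3K27ac near CEBPA lay downstream of its TSS, much of it in intergenic sequence. Peaks covered 16.3 kb of the 50 kb downstream in HL-60, 29.2 kb in Molm13, 31.3 kb in OCI-AML3 and 0 in K562. Those of the 3 AML lines stood at percentile 100, 99.9 and 99.9 of coding genes. The lengths include the part of the TSS peak in this range, which ran to 10540 bp past the TSS in Molm13 and 5437 bp in OCI-AML3. A myeloid enhancer of CEBPA is known about 42 kb downstream. The point 42 kb downstream, looked up after the peaks were seen, lay inside a peak in the 3 AML lines. That peak was 3336 bp wide in HL-60 with a fold enrichment of 5.78, 3670 bp in Molm13 with 11.9, and 4093 bp in OCI-AML3 with 5.54. The neighbouring region chr19:33263602-33270988 had the higher enrichment in each of these lines, at 12.5 for Molm13, 9.11 for HL-60 and 5.98 for OCI-AML3. The other downstream regions marked in these 3 lines were chr19:33251949-33256594, chr19:33273033-33275263 and chr19:33278188-33283510. Upstream, an intergenic region at chr19:33329066-33333279 carried a peak of 364 bp in HL-60, 3812 bp in Molm13 and 4214 bp in OCI-AML3.

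CEBPE (ENSG00000092067, chr14:23117036-23120256, minus strand) was widest in HL-60, the line in which CEBPA was narrowest. Its TSS peak of 9825 bp in HL-60 compared with 2358 bp in Molm13 and 1219 bp in OCI-AML3. The HL-60 peak stood at percentile 99.9 for width, against 62 in Molm13 and 19 in OCI-AML3. The fold enrichment stood at percentile 76.8, 22.4 and 42, again highest in HL-60. The HL-60 peak covered 100% of the gene and ran 8461 bp past the TSS. The OCI-AML3 peak ended before the canonical TSS but took in 2 of the 3 annotated TSSs, and it covered 19.5% of the gene.

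Around CEBPE, K562 had no TSS peak but had more covered sequence than the AML lines. With TSS peaks of CEBPE included, the covered length was 9.38 kb upstream and 17.9 kb downstream in K562, against 1.99 kb and 11.1 kb in HL-60. Molm13 had 0.67 kb and 4.29 kb, and OCI-AML3 had 1.09 kb and 4.25 kb. Of the 6 upstream peaks of K562, 5 lay in the amino acid transporter gene SLC7A8, 3 of these at TSSs of that gene. The nearest lay 4710 bp upstream of the CEBPE TSS with a width of 360 bp. Downstream, a region at the TSSs of ACIN1 and C14orf119, chr14:23091853-23098160, was marked in all 4 lines.

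GFI1 (ENSG00000162676, chr1:92473043-92486925, minus strand) had a TSS peak among the widest of each AML list. The widths were 9455 bp in HL-60, 14866 bp in Molm13 and 18502 bp in OCI-AML3. They stood at percentile 99.8, 99.3 and 99.3, and the fold enrichments of 6.89, 8.52 and 4.74 at percentile 78.5, 78.7 and 78.5. The rank of GFI1 was thus nearly the same in each AML list although the widths differed. Peaks covered 98.8% of the gene in OCI-AML3, 92.6% in Molm13, 65.8% in HL-60 and none of it in K562.

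Downstream of GFI1, an intergenic region at chr1:92454349-92469047 was marked in all 4 lines. Its widest peak was 12610 bp for OCI-AML3, 10297 bp for Molm13 and 5159 bp for HL-60, against 1085 bp for K562. The K562 peak was the nearest to GFI1 in that line, 26.2 kb downstream, with a fold enrichment of 2.97. Upstream, a region over an exon of EVI5, chr1:92513790-92516934, was marked in Molm13 by a 2870 bp peak and in OCI-AML3 by a 3145 bp peak.

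IRF8, CEBPD and KLF4 were the members with a TSS peak in Molm13 and OCI-AML3 only. IRF8 (ENSG00000140968, chr16:85899116-85922606, plus strand) differed most between those lines. OCI-AML3 had 1 peak of 20744 bp that took in all 17 annotated TSSs of the gene, at percentile 99.5 for width. Its fold enrichment of 3.15 stood at percentile 22, so the domain was wide but low. Molm13 had 3 separate peaks at IRF8 TSSs, of 2084 bp at the canonical TSS and of 2089 bp and 1897 bp further into the gene. Peaks covered 94.8% of the gene in OCI-AML3 and 23.8% in Molm13, and none of it in the other lines.

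In OCI-AML3 the downstream flank of IRF8 had the longest covered sequence of any member in any line. Peaks covered 41.2 kb of this flank in OCI-AML3 and 27.5 kb in Molm13, at percentile 100 and 99.8 of coding genes. These lengths include the gene's own TSS peaks where they lie in the flank. In OCI-AML3 that is the 20744 bp peak, which ran to 19766 bp past the TSS. The region chr16:85920158-85938213, which runs from the end of the gene over LINC02132, held a 14419 bp peak in Molm13 and peaks of 12728 bp and 3154 bp in OCI-AML3. Upstream, chr16:85852182-85857268 carried a 5087 bp peak in Molm13 and a 3831 bp peak in OCI-AML3. In HL-60 and K562 the TSS lay in a peak-free stretch of 753 kb, which began 97.8 kb and 98.3 kb upstream and ended 656 kb and 655 kb downstream.

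CEBPD (ENSG00000221869, chr8:47736913-47738164, minus strand) had a TSS peak of 4651 bp in Molm13 and 4754 bp in OCI-AML3, at percentile 89.3 and 87.6. Both covered 100% of this intronless gene. HL-60 and K562 each had a narrower peak that began inside the gene, 827 bp and 790 bp after the TSS, with widths of 1077 bp and 1513 bp and fold enrichments of 2.96 and 2.93. These would count as TSS peaks with a window of 1000 bp. CEBPD had no separate upstream peak in any line, and downstream HL-60 had that 1 peak and K562 had 2.

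KLF4 (ENSG00000136826, chr9:107484852-107490482, minus strand) had narrow TSS peaks of low enrichment. The width was 1676 bp in Molm13 and 1851 bp in OCI-AML3, at percentile 41.8 and 40.6. The fold enrichment was 3.73 and 2.54, at percentile 11.1 and 5.9. Both calls were lost when only peaks with q below 0.001 were kept. A single 475 bp peak in OCI-AML3 was the only other peak within 50 kb. In HL-60 and K562 the TSS lay in peak-free stretches of 334 kb and 436 kb.

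**Figure D2:**
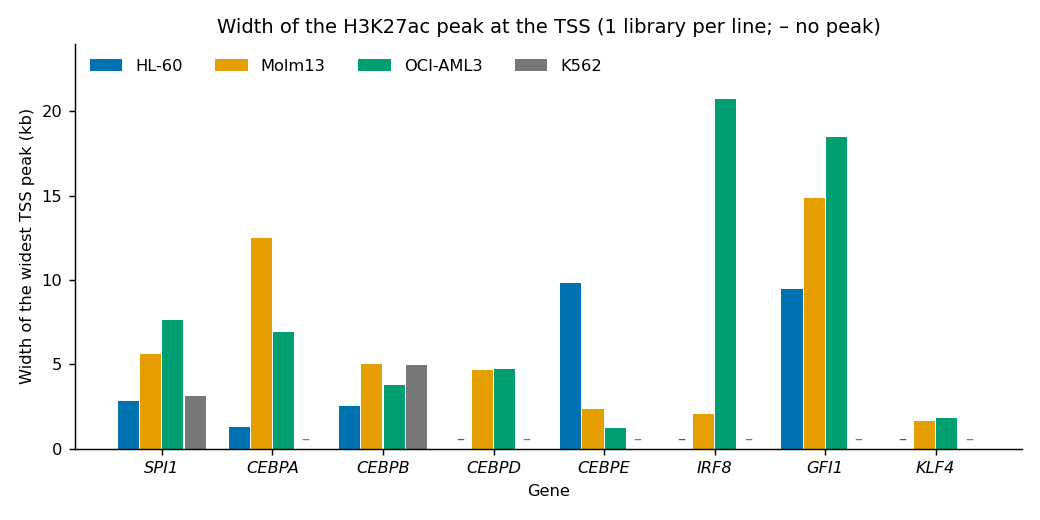
Width in kb of the widest H3K27ac peak at a TSS of each gene (1 bar per cell line, 1 library each, no error bar; a dash marks no peak). GFI1 is wide in all 3 AML lines, CEBPE in HL-60, CEBPA in Molm13 and IRF8 in OCI-AML3.

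**Figure D3:**
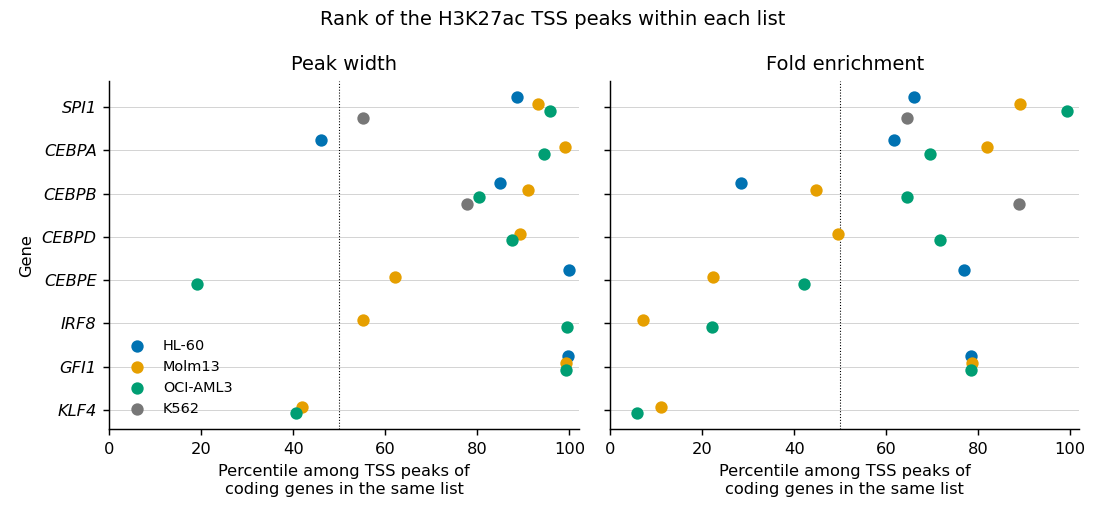
Percentile of each gene's TSS peak by width (left) and by fold enrichment (right) among the TSS peaks of coding genes in the same list, with 1 point per line that has a peak and a dotted line at 50. GFI1 lies above 99 for width in the 3 AML lines, IRF8 in OCI-AML3 is at 99.5 for width and 22 for fold enrichment, and KLF4 lies below 50 in both panels.

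Peaks of 10 kb or more at a TSS were found at CEBPA and GFI1 in Molm13 and at IRF8 and GFI1 in OCI-AML3, and at no member in HL-60 or K562. Among coding genes with a TSS peak they made up 4.38% in K562, 2.53% for OCI-AML3, 1.94% for Molm13 and 0.134% for HL-60. The order of widths over the lines differed from member to member. SPI1, GFI1 and IRF8 were widest in OCI-AML3, CEBPA and CEBPB in Molm13, and CEBPE in HL-60. CEBPD and KLF4 had nearly equal widths in Molm13 and OCI-AML3. None of these orders could be set against replicate spread.

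An upstream peak was found for 5 members each in Molm13 and OCI-AML3, 4 in HL-60 and 3 in K562, against 54.3%, 54.4%, 42.2% and 53.5% of coding genes. A downstream peak was found for 6, 7, 6 and 3 members in the same order of lines, against 52.6%, 52.5%, 39.3% and 53.2% of coding genes. SPI1 and CEBPB had upstream peaks in all 4 lines, CEBPA in the 3 AML lines, IRF8 and GFI1 in Molm13 and OCI-AML3, and CEBPE in HL-60 and K562. Within 25 kb the upstream counts were 4 in Molm13, 4 in OCI-AML3, 2 in HL-60 and 3 in K562. Within 100 kb they were 7, 7, 5 and 6. The share of coding genes was not computed for these 2 ranges. The length covered upstream over the 8 members was 16.9 kb in HL-60, 40.4 kb in Molm13, 47.7 kb in OCI-AML3 and 32.1 kb in K562. Away from every TSS the upstream lengths were 2.97 kb, 13.3 kb, 14.3 kb and 8.55 kb. The length covered downstream with all peaks was 51.6 kb, 109 kb, 131 kb and 26.2 kb, so K562 alone had less downstream than upstream. These lengths include the members' own TSS peaks where they run into the range, and K562 had a TSS peak at 2 members only. Downstream sums without those peaks were not computed.

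**Figure D4:**
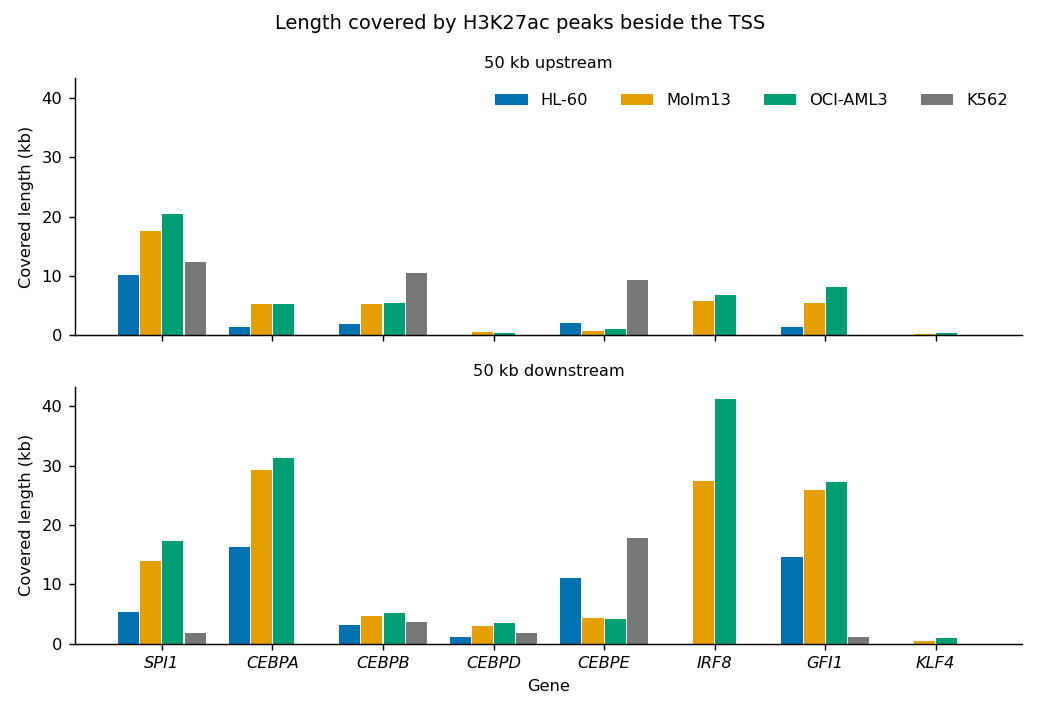
Length in kb covered by H3K27ac peaks between 500 bp and 50 kb upstream (top) and downstream (bottom) of the canonical TSS, with 1 bar per line and 1 library each. The gene's own TSS peaks count where they reach into these ranges. With all peaks counted SPI1 leads upstream in every line, which did not hold in any line once peaks at TSSs were left out, and IRF8 downstream in OCI-AML3 reaches 41.2 kb.

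When overlapping peaks of the 4 lines were joined, the 2 flanks of the 8 members held 53 regions outside the TSS peaks. The same joining in the flanks of every coding gene gave 86570 regions, in which a region near several genes counts once for each. Of the members' regions, 24 (45.3%) were marked in 1 line, against 58.9% around coding genes. A further 10 were marked in 2 lines, 11 in 3 lines and 8 in all 4, or 18.9%, 20.8% and 15.1%, against 14.6%, 10.4% and 16.1%. The 3 AML lines without K562 shared 8 regions (15.1%, against 3.43%), and 5 of these were the downstream regions of CEBPA. Molm13 and OCI-AML3 alone shared 8 (15.1%, against 8.73%), of which 5 lay around IRF8. K562 alone held 9 regions, or 17% against 30.1% around coding genes. Most of these lay around CEBPE, largely in SLC7A8 or ACIN1, and the others around CEBPB. Molm13 alone held 7 (13.2%, against 12.3%), OCI-AML3 6 (11.3%, against 10.4%) and HL-60 2 (3.77%, against 6.15%). Of the 34 regions of Molm13, 76.5% were also marked in OCI-AML3, and of the 33 of OCI-AML3, 78.8% in Molm13, near the 70.6% and 71.4% around coding genes. Of the 22 regions of K562, 50% were also marked in Molm13, 50% in OCI-AML3 and 45.5% in HL-60, against 42%, 44% and 29.5%. These shares are descriptions over few regions, several of them around the same gene.

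For the members other than CEBPB, the 3 coding genes with the most similar width ranks over the 4 lines were looked up, by the sum of the absolute differences in percentile, with 0 for no peak. The nearest to GFI1 was MPO, at a sum of 0.377 percentile points, followed by HSH2D and HCST. The nearest to CEBPE were CLEC12A, LIMD2 and GRAMD1B, at sums of 17.5, 18.2 and 23. CEBPA was followed by DENND2D, PROK2 and IL17RA, and CEBPD by CES1, MMP14 and MS4A14. IRF8 lay nearest to IL31RA, CCL3L3 and SYNE3, KLF4 to BCL7A, RAPGEF4 and UST, and SPI1 to TAPT1, TYMP and CFAP119. The measure rests on 4 values per gene, and members without a peak in 2 lines match many genes in those lines. GFI1 ranked at percentile 99.8, 99.3 and 99.3 in the AML lists. Any gene near the top of those lists without a K562 peak gives it a small sum. Its sums therefore cannot be compared with those of CEBPE.

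Genes linked to the members by family or function were counted by the same rule. Of 28 relatives (other C/EBP, PU.1-related ETS, IRF, GFI and KLF genes), 18 (64.3%) had a TSS peak in K562, 15 (53.6%) in HL-60, 17 (60.7%) for Molm13 and 21 (75%) for OCI-AML3. The shares of coding genes were 55.9%, 44.7%, 53.9% and 57.7%. IRF5, an interferon regulatory factor of macrophages, was the only relative with peaks in the 3 AML lines and none in K562, against 2.22% of coding genes. KLF1, the erythroid KLF factor, was the only relative with a peak in K562 alone, 11579 bp wide, against 4.78% of coding genes. GFI1B, the relative of GFI1 that acts in erythroid cells and megakaryocytes, had a TSS peak of 8126 bp in K562, against 998 bp for HL-60, 1651 bp for Molm13 and 1978 bp for OCI-AML3. GFI1 and GFI1B were thus widest in different lines. KLF3 (14466 bp in K562), KLF9 (13873 bp in K562) and KLF16 (11132 bp in Molm13) were the other relatives among the 4 with the widest peaks.

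Of 20 partners and cofactors, 19 (95%) had a TSS peak in K562, 17 (85%) in HL-60, 18 (90%) for Molm13 and 20 (100%) for OCI-AML3. The shares of coding genes were 55.9%, 44.7%, 53.9% and 57.7%. EGR2, a monocyte factor that opposes GFI1, was the only one with peaks in the 3 AML lines and none in K562, at 1373 bp, 1679 bp and 942 bp. The widest peaks lay at MYB, a progenitor factor, with 39368 bp in OCI-AML3, and at ZEB2, with 25174 bp in OCI-AML3. JUNB reached 13037 bp in Molm13 and RUNX1, a partner of PU.1 and C/EBPα, 12694 bp in OCI-AML3.

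Of 23 myeloid target genes of these factors, 3 (13%) had a TSS peak in K562, against 13 (56.5%) in HL-60, 16 (69.6%) for Molm13 and 19 (82.6%) for OCI-AML3. The shares of coding genes were 55.9%, 44.7%, 53.9% and 57.7%. As the list was chosen with earlier results of these data known, the shares only describe these genes. Of these target genes, 12 had peaks in the 3 AML lines and none in K562, a pattern found in 2.22% of coding genes. They included the granule protein genes MPO, ELANE, CTSG and CAMP, the receptor genes CSF2RB, IL6R and TLR4, the oxidase genes CYBB and NCF4, and S100A9 and FES. Some of these calls rest on very narrow peaks. The CTSG peak in HL-60 was 264 bp wide (percentile 1.63). In Molm13 the peaks were 274 bp at CYBB (0.574), 281 bp at S100A9 (0.648) and 418 bp at CSF2RB (2.88). CSF1R, the receptor for macrophage colony-stimulating factor and a PU.1 target, had peaks of 2758 bp in Molm13 and 4418 bp in OCI-AML3 only. CD14, LTF, MMP8 and LCN2 had no TSS peak in any line. The 3 genes with a peak in K562 were CSF3R, LYZ and BTK. MPO, CSF3R and LYZ also stand in the list of myeloid markers. The widest peaks were those of ELANE, with 34162 bp in Molm13, MPO, with 20070 bp in OCI-AML3, BTK, with 10255 bp in K562, and CTSG, with 8658 bp in OCI-AML3. The ELANE peak in Molm13 is shared with its neighbours AZU1 and PRTN3. In HL-60 the count of target genes was 8 when only peaks with q below 0.001 were kept.

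**Figure D5:**
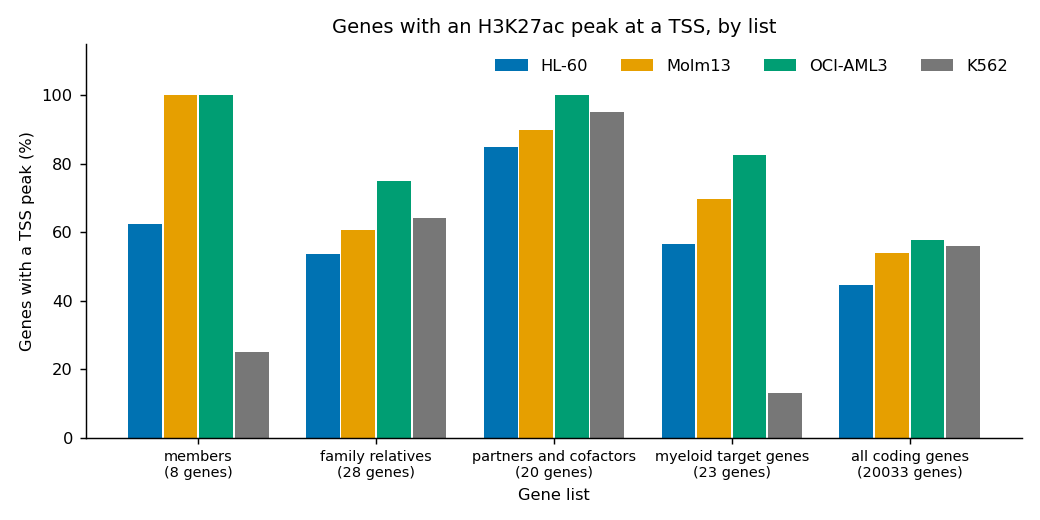
Percentage of genes with an H3K27ac peak at a TSS in the 8 members, 28 relatives, 20 partners and cofactors, 23 myeloid target genes and 20033 coding genes, with 1 bar per line. In K562 the members stand at 25% and the target genes at 13%, against 55.9% of coding genes. The lists were chosen with earlier results of these data known, so the shares only describe these genes.

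The series also holds a list of dCas9 peaks from K562 cells with sgRNAs against the LTR2B family. None of these peaks lay within 50 kb of a member, and the nearest was 482.7 kb from CEBPB.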

How the data were processed

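H3K27ac peaks were measured in 1 library per line, and samples were grouped by their titles. The study's methods state that the authors used Trim Galore for trimming and Bowtie2 for alignment to hg38, kept uniquely mapped reads and called peaks with MACS2 2.1.1 at q 0.05 with its broad setting. The submitters' processing notes name Trim Galore 0.4.5 and Bowtie2 2.3.4, and the methods give another version of Bowtie2. The control library given to the caller is not given in the sources used here, and the deposited lists run to q values of 0.0947 to 0.0995. In the deposited lists each peak has a position, a fold enrichment (a ratio to local background), a −log10 p-value, a −log10 q-value and a score, which is that −log10 q-value on a larger scale. Pooling was not stated, and each list names 1 sample.

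Peaks were read with Python 3.11.15 and pandas 2.3.3, and those on other contigs (35 to 70 per list) were left out. TSSs came from GENCODE 44. A TSS peak overlapped the 500 bp on either side of any TSS of the gene by at least 1 bp. Upstream and downstream ranges ran from 500 bp to 50 kb from the canonical TSS, leaving out peaks at the gene's own TSSs from peak counts but not from covered length. Overlap calls were tested on simulated data and checked with bedtools 2.31.1. No test was possible with 1 library per group, the read depth is unknown, and no interval is given. The members and gene lists were chosen with earlier results of these data known. Genes named from the lists were those with TSS peaks in the 3 AML lines and not K562, those with a peak in K562 only, and the 4 with the widest peak in any line; GFI1B, CSF1R and the genes without any peak were named in addition after their values were seen. The places 17 kb upstream of SPI1 and 42 kb downstream of CEBPA were likewise added after the peaks were seen. Alternatives comprised other TSS windows, canonical TSSs only, stricter q, lists of equal length, merged peaks, 0.5 of the window covered, upstream ranges of 25 kb and 100 kb, and upstream peaks away from every TSS. The dCas9 list was used for distances only. A few genes that these rules select are not reported here.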

Additional observations from a re-analysis of the deposited data

How the results depend on the processing

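No paired analysis was possible because each line has 1 library and no result comes from a test. Of 152 counts of members or listed genes recomputed under an alternative, 147 were within 1.5 times the reported count. The other 5 were as follows. Members with a TSS peak in HL-60 numbered 3 (SPI1, CEBPE and GFI1) when a peak had to cover at least 0.5 of the TSS window, since the HL-60 peaks of CEBPA and CEBPB lie beside the TSS. Members with an upstream peak numbered 2 in HL-60 within 25 kb and 6 in K562 within 100 kb, where Molm13 and OCI-AML3 had 7 each. Myeloid target genes with a TSS peak numbered 8 in HL-60 with q below 0.001 and 5 in K562 with a window of 1000 bp. Small counts could also change while staying within 1.5 times. A window of 1000 bp added CEBPD, giving 6 members with a TSS peak in HL-60 and 3 in K562. CEBPD would then have a TSS peak in all 4 lines. Of 704 single values of members, 587 did not move at all. KLF4 lost its peak in Molm13 and OCI-AML3 with q below 0.001, and in OCI-AML3 with lists of equal length. With upstream peaks at any TSS left out, the upstream covered length of SPI1 fell to between 0 and 961 bp, and SPI1 led in no line. Each line has a single library of unknown depth, and leaving out a replicate could not be tried.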
